A study of Homo sapiens with 6 samples.

Results

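The genes described here are 10 genes of the circadian clock: the repressors BHLHE40 and BHLHE41, the period genes PER1, PER2 and PER3, the cryptochrome genes CRY1 and CRY2, the activators ARNTL and CLOCK, and the output factor DBP. They were taken by symbol from a table of 27009 genes, and each of the 10 had 1 row. All 10 reached 10 scaled reads in at least 3 libraries, as did 15076 genes in all. The table came from RNA sequencing of cells labelled Hep3B, a human liver cancer line, in 6 libraries of 2 groups. Every library came from cells in which endogenous PD-L1 had been knocked out. The 3 libraries labelled vector came from such cells with the empty vector, and the 3 labelled nPD-L1 from such cells that overexpressed nPD-L1, a mutated human PD-L1 that accumulates in the nucleus. The construct was driven by a CMV promoter and delivered by lentivirus into stable cells, and whether a line was 1 clone was not given in the sources used here. Neither was the time of harvest or any synchronisation of the cultures, so each library gives 1 reading of genes whose products oscillate. The study calls the libraries of a group independent samples. Whether they came from separate cultures is not given in the sources used here, and if not, p values measure only technical spread. If each group was 1 stable line, separate cultures would replicate only that line. The construct and any other difference between the lines could then not be told apart.

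The circadian clock is a transcription loop. ARNTL (also called BMAL1) pairs with CLOCK, and the pair binds the E-box, CACGTG, and switches on the PER and CRY genes, whose proteins return to the nucleus and silence it. BHLHE40 and BHLHE41 (also called DEC1 and DEC2) are repressors that bind the same E-box and hold it against ARNTL and CLOCK. A second loop runs through the ROR element, where ROR proteins activate and NR1D1 and NR1D2 repress ARNTL. A further arm runs through the D-box, where DBP, TEF and HLF activate and NFIL3 represses. In liver, the clock times the genes of sugar, fat, bile acid and drug metabolism. BHLHE40 is also known as a gene that responds to low oxygen, TGF-beta and other signals.

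The sites of these 3 kinds that lay at the starts of the 10 genes are shown first, since the genes are linked through them. RefSeq gave 14 start windows for the 10 genes on GRCh38, each from 250 bases before to 50 bases after a transcription start. Both strands were searched. The E-box CACGTG was found at the starts of BHLHE40, BHLHE41 and PER1. It stood in 7.26% of all 35116 windows of the same length, and in at least 1 window of 8.77% of all 27305 genes. In the 30-base stretches below, written 5′ to 3′ on the strand of the gene, the capitals mark the motif.
BHLHE40, chr3:4979187-4979216, + strand, motif 245 bases before the start: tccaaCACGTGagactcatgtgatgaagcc
BHLHE41, chr12:26125068-26125097, − strand, motif 48 bases before the start: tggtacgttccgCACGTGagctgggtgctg
PER1, chr17:8152560-8152589, − strand, motif 173 bases before the start: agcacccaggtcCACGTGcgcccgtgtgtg

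The D-box was searched as TTATGTAA and TTACGTAA and was found at PER2 and PER3, beside 1.01% of all windows and 1.27% of all genes.
PER2, chr2:238288595-238288624, − strand, motif 3 bases before the start: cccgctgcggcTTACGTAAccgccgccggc
PER3, chr1:7784103-7784132, + strand, motif 177 bases before the start: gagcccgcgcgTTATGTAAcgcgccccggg
The ROR element was searched as TAGGTCA, a choice made after the sequences had been seen, and was found at CRY2 and ARNTL. It stood in 1.85% of all windows and 2.29% of all genes.
CRY2, chr11:45847399-45847428, + strand, motif 65 bases before the start: ttgcggcgtcaTAGGTCActgggcgggcta
ARNTL, chr11:13277809-13277838, + strand, motif 31 bases after the start: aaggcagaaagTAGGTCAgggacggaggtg
By GENCODE 29, the annotation of the table, the motifs of BHLHE40, BHLHE41, CRY2 and ARNTL lay in exons of their own genes. Those of PER1 and PER2 lay inside the gene outside its exons, and that of PER3 lay upstream of its gene. The windows of CRY1, CLOCK and DBP held none of these letters. A match is a description of the sequence, and no binding was measured.

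The deposited values were reads per gene divided by a size factor of the library, called scaled reads here. The libraries held 17427519 to 22253295 reads on genes. CD274, the gene of PD-L1, was checked first. It measured 28.3, 38.4 and 47.8 scaled reads in vector replicates 1, 2 and 3 and 16.8, 19.2 and 30.9 in nPD-L1 replicates 1, 2 and 3. It was thus not higher in the libraries labelled nPD-L1, and the groups overlapped (log2 difference −0.76, SE 0.34, adjusted p = 0.338 by limma; exact permutation test, two-sided, p = 0.20, where 0.10 is the smallest p that 3 against 3 allows). The libraries are named by their labels, and the directions given here follow them. Of 12 hepatoma markers listed, 11 had a row, and AFP had none. Of the 11 with a row, 7, among them ALB, APOA1 and TTR, stayed under 4 scaled reads in every library. Most of the listed hepatoma markers were thus near absent, and whether the cells were Hep3B, as labelled, was not tested. FGB, a fibrinogen chain made by hepatocytes, stood at 962 to 1540.5. The 11 genes summed to 1106 to 1651 in the vector libraries and 1164 to 1279 in the libraries labelled nPD-L1, and of the 4 tested HNF4A, a hepatocyte factor, rose from 12.2 ± 6.52 to 45.5 ± 10.2 (SD, n = 3; adjusted p = 0.023). Of 6 markers of other cell types with a row, the leukocyte gene PTPRC and the endothelial genes PECAM1 and VWF stayed under 4. The fibroblast collagen gene COL1A1 rose from 65.3 ± 16.5 to 466 ± 21.1 (SD, n = 3; adjusted p = 8.0e-06), and the 6 genes summed to 70.7 to 115 in the vector libraries and 475 to 504 in the libraries labelled nPD-L1. The fibroblast gene DCN stayed at or under 5.04 scaled reads, and the part of other cells in the results was not tested. Vector replicates 2 and 3 deviated from their group by gene length, in opposite directions. Each was compared with the mean of the other vector libraries. Vector replicate 2 lay at a median of −0.19 (log2) among genes with at least 7156 exon bases, the long end of the genes tested. Among genes with at most 2751 it lay at 0.24. Vector replicate 3 lay at 0.15 and −0.17 in the same order. The part of this in the values of single genes was not tested.

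The 10 genes were selected on their function in the clock and on the measured difference of the libraries labelled nPD-L1 from vector, which was known when they were picked, so for them the difference is described and not tested. BHLHE40 stood about 4.5 times higher in the libraries labelled nPD-L1, CRY2 stood 1.73 times higher, and DBP stood at 0.462 of its vector mean. In a culture sequenced in bulk, a change in every cell and a change in the share of cells that express a gene cannot be told apart. BHLHE41, PER2, PER3, CRY1 and CLOCK lay in overlapping ranges. BHLHE40 and CRY2 passed the call used for the whole table (limma, Benjamini-Hochberg adjusted p under 0.05), which 4.96% of the 15076 genes tested passed, 4.04% as higher and 0.922% as lower. The groups did not overlap for 5 of the 10 genes (20.6% of all genes tested), higher for 4 (12.0% of all genes tested) and lower for DBP (8.54% of all genes tested). The median log2 difference of the 10 genes was 0.19, beside −0.02 over all genes tested. Nothing is read from these counts, because the choice of the genes used the same contrast.

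**Figure D1:**
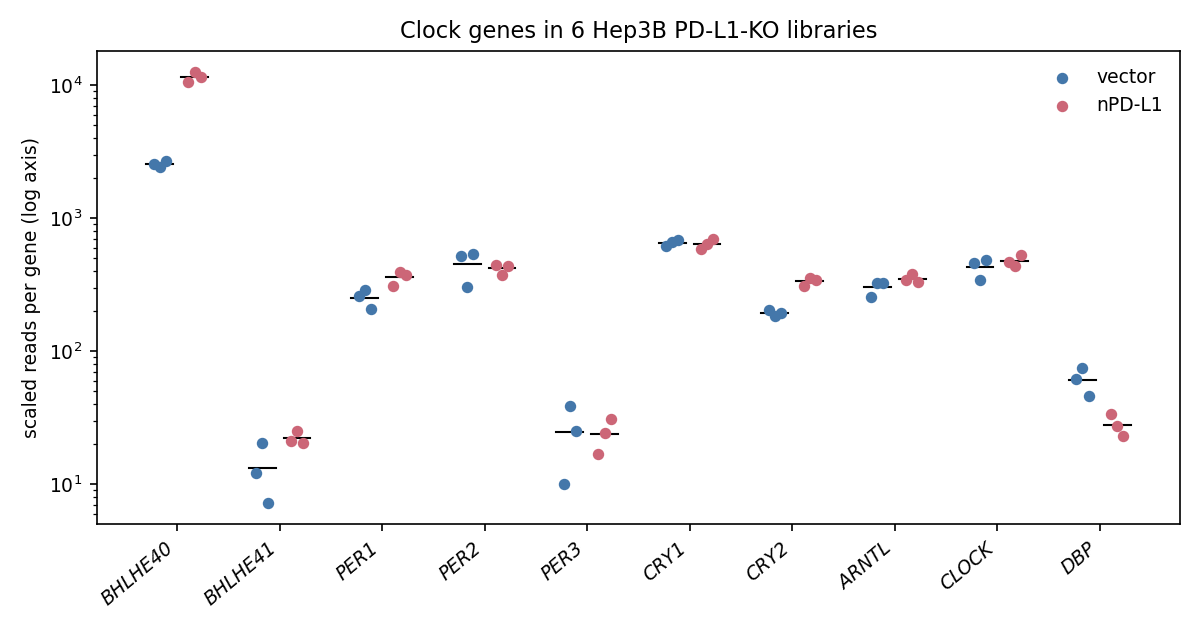
Scaled reads per gene on a log axis for the 10 clock genes in the 3 vector (blue) and 3 nPD-L1 (red) libraries, 1 point per library in replicate order, with the group mean as a bar. BHLHE40 stands at 2447 to 2700 in the vector libraries and 10532 to 12544 in the libraries labelled nPD-L1, CRY2, PER1 and ARNTL lie higher and DBP lies lower without overlap, and BHLHE41, PER2, PER3, CRY1 and CLOCK overlap.

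BHLHE40, the E-box repressor (ENSG00000134107, chr3:4979116-4985323 on GRCh38, + strand), measured 2554, 2447 and 2700 scaled reads in vector replicates 1, 2 and 3 and 10532, 12544 and 11625 in nPD-L1 replicates 1, 2 and 3. The lowest nPD-L1 library lay far above the highest vector library. The means were 2567 ± 127 and 11567 ± 1007 (SD, n = 3 each), a ratio of 4.51, and the log2 difference was 2.17 (SE 0.10). With each library left out in turn it ran from 2.11 to 2.23. The gene was among the more abundant ones, with a mean above that of 97.7% of the genes tested, and its 6 libraries held 2167 to 12533 recovered reads. Within groups it varied little, with a residual SD of 0.10 (log2), larger than that of 16.1% of the genes tested. Its antisense neighbour BHLHE40-AS1 shares 4 exon bases with it and held at most 14.5 scaled reads in any library.

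BHLHE41, the close relative of BHLHE40 with the same mode of repression (ENSG00000123095, chr12:26120026-26125127, − strand), was barely present. It measured 12.1, 20.3 and 7.27 scaled reads in vector replicates 1, 2 and 3 and 21.0, 25.3 and 20.3 in nPD-L1 replicates 1, 2 and 3. Vector replicate 2 reached the level of the libraries labelled nPD-L1, so the groups overlapped. The log2 difference was 0.80 (SE 0.42), on 7 to 25 recovered reads per library. Per kilobase of exon, BHLHE40 exceeded BHLHE41 241 ± 131 times in the vector libraries and 539 ± 44.7 times in those labelled nPD-L1 (SD, n = 3).

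Among the period genes, whose proteins form the inhibitory complex with the cryptochromes, PER1 (ENSG00000179094, chr17:8140472-8156506, − strand) measured 261, 290 and 207 scaled reads in the vector libraries, against 309, 397 and 374 in the libraries labelled nPD-L1, in replicate order. The groups lay next to each other without overlap, with vector replicate 2 only 19.0 scaled reads under nPD-L1 replicate 1. The log2 difference was 0.52 (SE 0.16), which did not pass the call. Without vector replicate 2 it was 0.62 and passed.

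PER2 (ENSG00000132326, chr2:238244038-238290102, − strand) measured 517, 306 and 539 scaled reads in the vector libraries, against 448, 375 and 436 in those labelled nPD-L1. The vector libraries held both the lowest and the highest values of the gene. The log2 difference was −0.07 (SE 0.20). Vector replicate 2 lay at −0.78 (log2) from the mean of the other vector libraries here, and without it the difference was −0.33.

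PER3 (ENSG00000049246, chr1:7784320-7845177, + strand) was the most variable of the 10 genes. It measured 10.1, 38.4 and 24.9 scaled reads in the vector libraries, against 16.8, 24.3 and 30.9 in the libraries labelled nPD-L1. Its residual SD of 0.72 (log2) exceeded that of 95.5% of the genes tested, and it rested on 10 to 34 recovered reads per library. Vector replicate 2 lay at 1.22 (log2) from the mean of the other vector libraries. The log2 difference was 0.11 (SE 0.47), and its sign changed with the library left out, from −0.40 to 0.52. Opposite-strand exons of UTS2 cover 10.7% of its exon bases, and whether reads were counted by strand was not given in the sources used here.

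The cryptochromes bind the period proteins and block ARNTL and CLOCK, and the 2 genes differed in behaviour. CRY1 (ENSG00000008405, chr12:106991364-107093829, − strand) measured 615, 658 and 686 scaled reads in the vector libraries, against 584, 641 and 696 in those labelled nPD-L1. The nPD-L1 range enclosed the vector range, and the log2 difference was −0.03 (SE 0.11). CRY2 (ENSG00000121671, chr11:45847118-45883248, + strand) measured 206, 183 and 192 scaled reads in the vector libraries, against 309, 355 and 341 in those labelled nPD-L1. The groups were well apart relative to their spread, with means of 194 ± 11.5 and 335 ± 23.4 (SD, n = 3 each) and a log2 difference of 0.79 (SE 0.13). With 1 library left out it ran from 0.74 to 0.84. Per kilobase of exon, the ratio of CRY1 to CRY2 was 3.66, 4.41 and 4.37 in vector replicates 1, 2 and 3 and 2.31, 2.21 and 2.50 in nPD-L1 replicates 1, 2 and 3. CRY1 thus stayed the more abundant cryptochrome in every library, by a smaller margin in the libraries labelled nPD-L1.

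Neither activator passed the call. ARNTL (ENSG00000133794, chr11:13276652-13387266, + strand) measured 254, 329 and 327 scaled reads in the vector libraries, against 345, 379 and 330 in those labelled nPD-L1. The groups did not overlap, but only just, with 1.27 scaled reads between the highest vector and the lowest nPD-L1 library. The log2 difference was 0.22 (SE 0.14), and it fell to 0.10 without vector replicate 1. CLOCK (ENSG00000134852, chr4:55427903-55547138, − strand) measured 457, 346 and 489 scaled reads in the vector libraries, against 466, 439 and 526 in the libraries labelled nPD-L1. Only vector replicate 2 lay below the nPD-L1 range. The log2 difference was 0.16 (SE 0.15), and 0.01 without that library.

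DBP, the D-box activator (ENSG00000105516, chr19:48630030-48637438, − strand), measured 61.6, 74.5 and 45.7 scaled reads in the vector libraries, against 33.6, 27.3 and 23.2 in the libraries labelled nPD-L1. Each vector library lay above each nPD-L1 library. The means were 60.6 ± 14.4 and 28.0 ± 5.27 (SD, n = 3 each), and the log2 difference was −1.07 (SE 0.28). This difference did not pass the call, and it did without vector replicate 3, at −1.26. SPHK2, a lipid kinase gene on the opposite strand, shares 661 bases with DBP, 10.1% of the exon bases of DBP. SPHK2 itself measured 325, 278 and 300 scaled reads in the vector libraries, against 319, 292 and 232 in the libraries labelled nPD-L1, so without strand some of the DBP reads could belong to it.

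**Figure D2:**
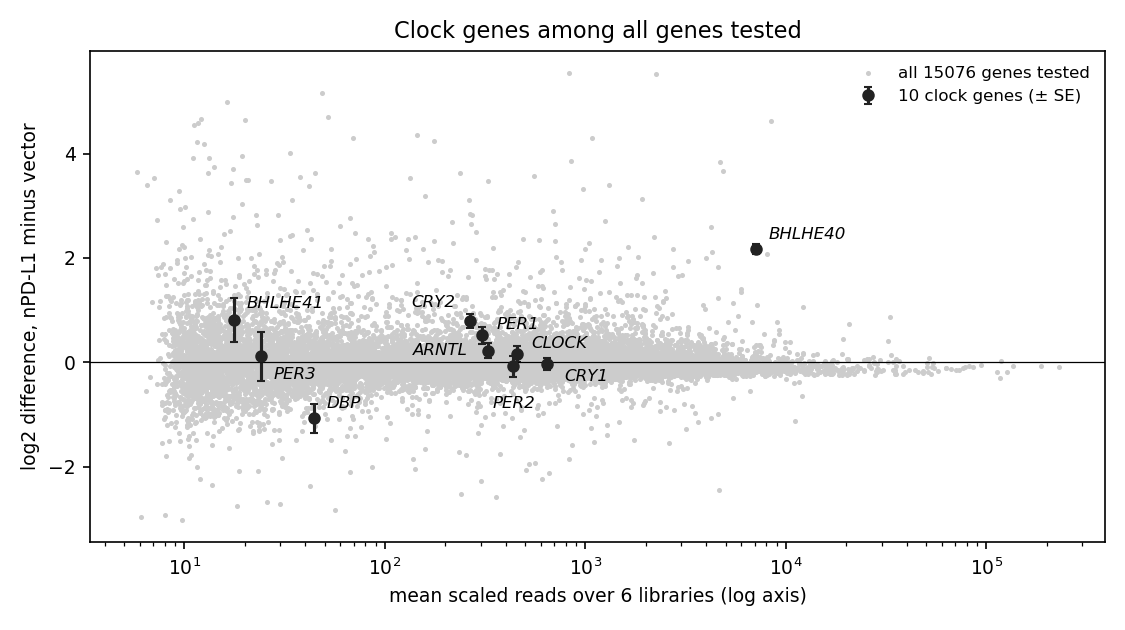
Log2 difference, nPD-L1 minus vector, against the mean scaled reads over the 6 libraries on a log axis, for all 15076 genes tested (grey) and the 10 clock genes (black, ± SE). BHLHE40 sits apart from the other clock genes, at 2.17 and at a high level. BHLHE41, PER3 and DBP lie at low levels with wide errors, and the other 6 clock genes lie between −0.07 and 0.79.

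To compare genes with each other, scaled reads were divided by the length of exon sequence in kilobases. This length counts exons of any transcript, and for DBP it covers 6544 of the 7409 bases of the gene. Per-kb levels are too low where the expressed transcripts are shorter than that. In the vector libraries BHLHE40 stood first with 669 ± 33.1 scaled reads per kb (SD, n = 3), then CRY1 with 129 ± 7.09 and PER2 with 66.0 ± 18.7. ARNTL followed with 45.1, CLOCK with 36.6, PER1 with 36.1 and CRY2 with 31.2, and each of PER2, ARNTL, CLOCK, PER1 and CRY2 overlapped its neighbour in this order. DBP stood at 9.26, and BHLHE41 at 3.35 and PER3 at 3.02 overlapped at the bottom. In the libraries labelled nPD-L1 the order was BHLHE40 with 3015 ± 262 per kb, CRY1 with 126 and PER2 with 61.0, then CRY2 with 54.0, ARNTL with 52.3, PER1 with 51.5 and CLOCK with 40.6, where each neighbour from PER2 to CLOCK overlapped the next. BHLHE41 with 5.62, DBP with 4.28 and PER3 with 2.96 closed the order and overlapped in the same way. CRY2 moved from below PER1 to above ARNTL, within ranges that overlapped its neighbours. BHLHE40 took 64.9% to 65.1% of the summed per-kb level of the 10 genes in the vector libraries and 87.9% to 89.0% in the libraries labelled nPD-L1.

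The balance between the E-box repressor and the E-box activators can be read on the same per-kb scale. The ratio of BHLHE40 to ARNTL was 17.6, 13.1 and 14.5 in vector replicates 1, 2 and 3 and 53.5, 58.0 and 61.8 in nPD-L1 replicates 1, 2 and 3. ARNTL2 and NPAS2, the close relatives that can stand in for ARNTL and CLOCK, were the more abundant transcripts here. ARNTL2 exceeded ARNTL 4.89 ± 1.24 times in the vector libraries and 3.62 ± 0.452 times in the libraries labelled nPD-L1, and NPAS2 exceeded CLOCK 5.74 ± 0.198 and 5.55 ± 0.650 times. Set against the sum of these 4 activators, BHLHE40 stood at 1.32, 1.51 and 1.16 in the vector libraries, against 5.13, 6.66 and 6.21 in those labelled nPD-L1. These are ratios of transcripts, and they hold no information on protein.

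**Figure D3:**
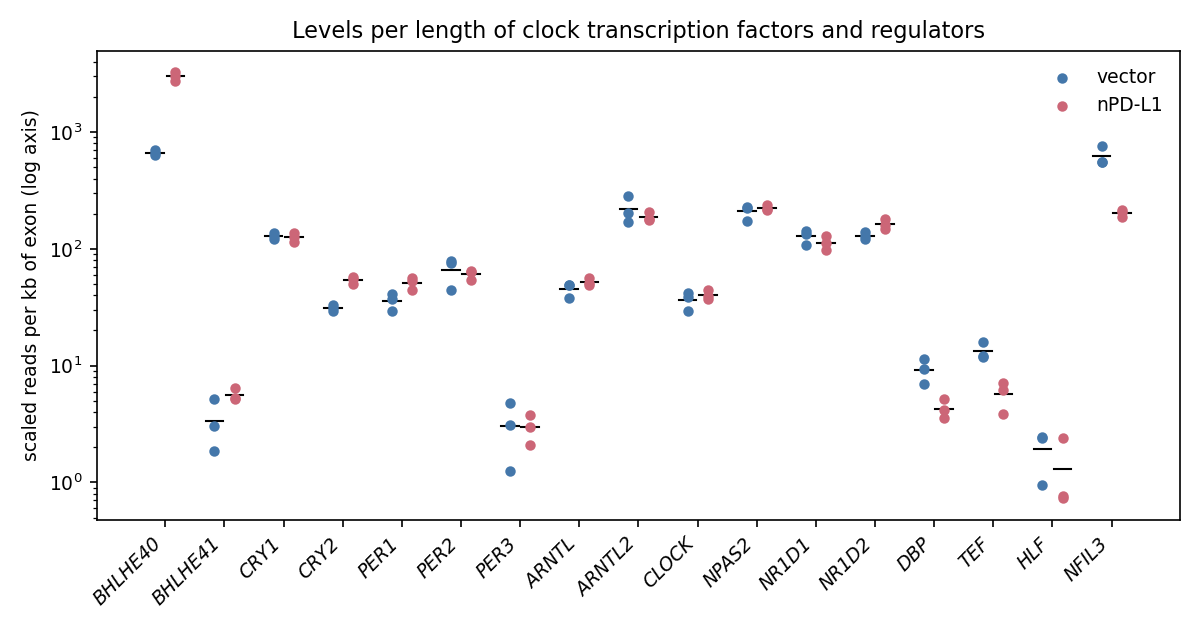
Scaled reads per kilobase of exon on a log axis for 17 clock transcription factors and regulators, 1 point per library, vector in blue and nPD-L1 in red, with the group mean as a bar. BHLHE40 is the highest in the libraries labelled nPD-L1, with NFIL3 next to it in the vector libraries, and ARNTL2 and NPAS2 lie above ARNTL and CLOCK in both groups.

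The rest of the clock was taken from 3 lists made by function, with 51 genes, of which 45 had a row and 44 were tested. In these, 4 genes were called higher and 4 lower, and 36 did not pass, with a median log2 difference of 0.04. The counts of this and the following lists stand beside 4.04% of all genes tested called higher and 0.922% called lower, and nothing is read from them for a list as a whole. The following adjusted p values come from the limma fit over all 15076 genes.

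Of the 8 other transcription factors of the loops, none was called higher and 2 were called lower, both of the D-box arm. NFIL3, the D-box repressor, measured 1152, 1153 and 1581 scaled reads in the vector libraries, against 434, 453 and 391 in the libraries labelled nPD-L1. Its log2 difference was −1.59 (SE 0.14, adjusted p = 6.6e-05). TEF, a D-box activator like DBP, measured 75.7, 55.3 and 57.2 against 33.6, 18.2 and 28.9, with a log2 difference of −1.22 (SE 0.30, adjusted p = 0.041). The call of TEF was lost in 5 of the 6 fits with 1 library left out, all but that without vector replicate 2. That call was also lost with edgeR on 4 libraries. HLF, the remaining D-box activator, had 12.7 ± 5.63 and 8.62 ± 6.37 scaled reads and did not pass (adjusted p = 0.713). In the D-box arm, the repressor NFIL3 and the activator TEF thus passed the call as lower, and the activator DBP, with its lower values, did not. Per kilobase, NFIL3 exceeded DBP 58.7, 48.6 and 108 times in the vector libraries, against 40.6, 52.1 and 53.0 times in the libraries labelled nPD-L1, ranges that overlapped. The size of these ratios depends on the exon length taken for DBP, which counts exons of any transcript.

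In the ROR arm, NR1D1 had a log2 difference of −0.18 (SE 0.16, adjusted p = 0.678) and NR1D2 of 0.32 (SE 0.11, adjusted p = 0.176). The NR1D2 libraries did not overlap, with 757 ± 52.9 scaled reads in the vector and 949 ± 89.3 in the nPD-L1 group. The exons of NR1D1 share 263 bases with THRA on the opposite strand, 9.49% of its exon bases. THRA measured 338, 238 and 264 scaled reads in the vector libraries, against 641, 540 and 495 in those labelled nPD-L1. Without strand, some of the NR1D1 reads could belong to THRA, and more so in the libraries labelled nPD-L1. RORA lay at 22.4 ± 4.49 and 14.2 ± 1.53 scaled reads, with a log2 difference of −0.61 (SE 0.35, adjusted p = 0.503). NPAS2 and ARNTL2 differed by 0.11 (SE 0.12, adjusted p = 0.750) and −0.19 (SE 0.17, adjusted p = 0.682).

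The kinases, ubiquitin ligases and cofactors act on the clock proteins after they are made. Of 25 tested, 1 was called higher, a share near the 4.04% of all genes tested, and none lower, with a median log2 difference of 0.05. The gene called was USP2, a deubiquitinase known to act on clock proteins, which rose from 15.1, 19.2 and 30.1 scaled reads in the vector libraries to 118, 118 and 123 in the libraries labelled nPD-L1 (log2 difference 2.48, SE 0.28, adjusted p = 0.00032). An antisense gene on the opposite strand covers 17.5% of the USP2 exon bases. The casein kinase genes CSNK1D and CSNK1E, whose products mark the period proteins for decay, had log2 differences of 0.14 (SE 0.09) and −0.04 (SE 0.10). CIPC, an inhibitor of CLOCK, had 0.36 (SE 0.14, adjusted p = 0.261). SIRT1, a deacetylase of clock proteins, measured 1122, 1108 and 1339 scaled reads against 1579, 1487 and 1541, with a log2 difference of 0.37 (SE 0.11, adjusted p = 0.084). PRKAA2, a catalytic subunit of AMPK, the kinase that marks CRY1 for decay, had 0.48 (SE 0.15, adjusted p = 0.128), and PRKAA1 had 0.10 (SE 0.11, adjusted p = 0.741).

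The third list held genes known as outputs of the clock. Of 11 tested, 3 were called higher and 2 lower, where 4.04% and 0.922% of all genes tested were. WEE1, the kinase that holds cells before mitosis, rose from 1399 ± 93.0 to 2203 ± 135 scaled reads (SD, n = 3; log2 difference 0.66, SE 0.10, adjusted p = 0.0028). Its call was lost with edgeR on 4 libraries. NOCT, the phosphatase called nocturnin, rose from 423 ± 60.0 to 753 ± 44.2 (log2 difference 0.84, SE 0.13, adjusted p = 0.0028). KLF10, a transcription factor also known as a TGF-beta response gene, rose from 1161 ± 289 to 2080 ± 64.4 (log2 difference 0.87, SE 0.16, adjusted p = 0.0077). Its call was lost without nPD-L1 replicate 1 and with edgeR on 4 libraries. PPP1R3C, which brings a phosphatase to glycogen, fell from 446, 366 and 357 scaled reads to 108, 90.0 and 149 (log2 difference −1.77, SE 0.20, adjusted p = 0.00031). Of 9 output genes with a start window, 2 held an E-box there, PPP1R3C and UPP2, beside 8.77% of all genes. UPP2 was too low to be tested. Of 10 loop factors with a window, 3 held it, NR1D2, TEF and CIART, of which CIART had no row. TSC22D3, a glucocorticoid response gene, fell from 687 ± 45.2 to 498 ± 38.9 (log2 difference −0.46, SE 0.11, adjusted p = 0.044), a call lost in 5 of the 6 fits with 1 library left out, all but that without vector replicate 2, and with no filter on low values. That call was also lost with edgeR on 4 libraries. NAMPT and ALAS1, the rate-limiting enzymes of NAD salvage and of heme synthesis, had log2 differences of −0.09 (SE 0.19) and −0.00 (SE 0.11).

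**Figure D4:**
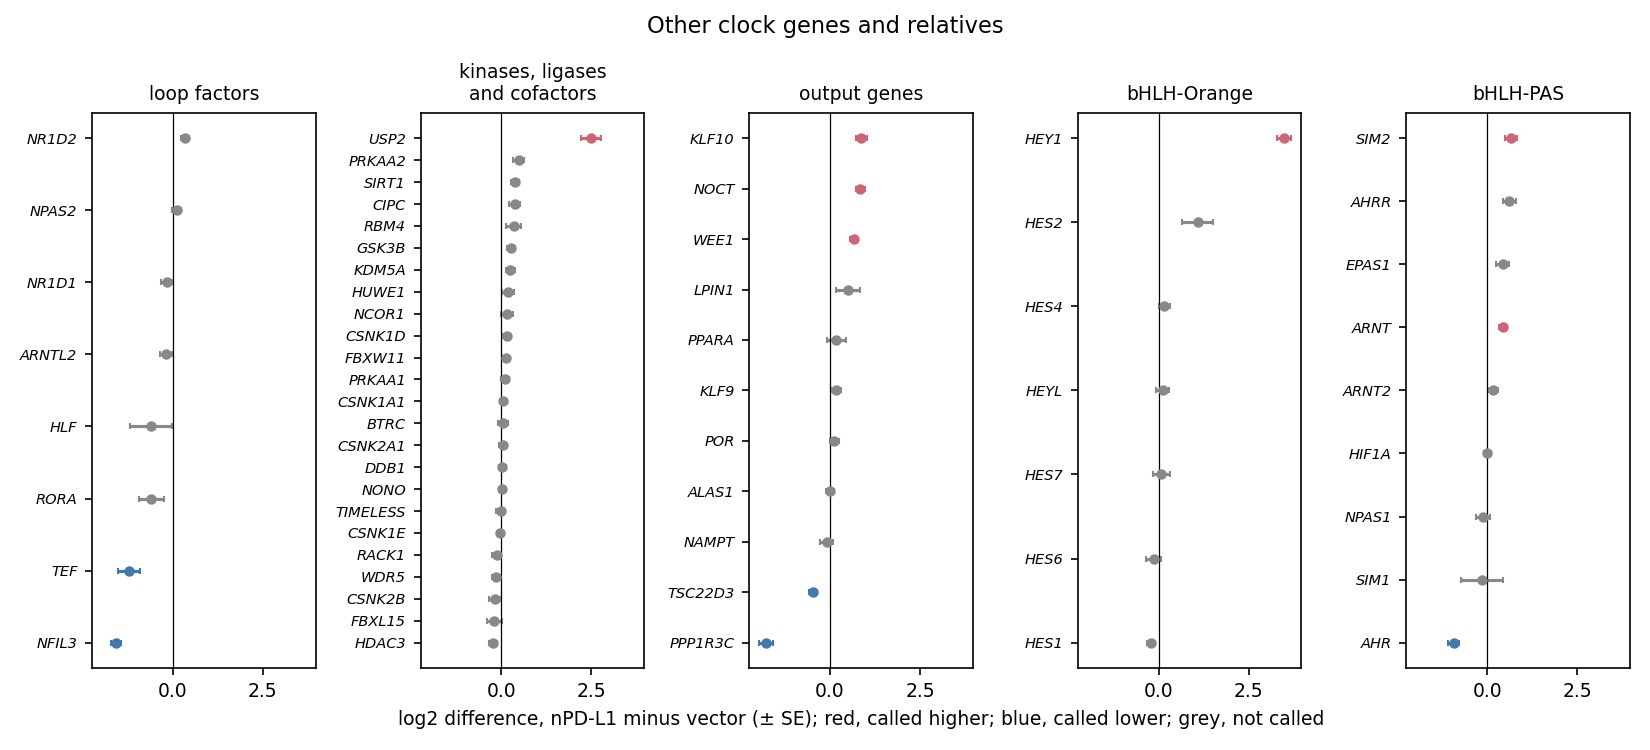
Log2 difference, nPD-L1 minus vector, with its SE, for the tested genes, all but 1, of 3 lists of other clock genes and 2 lists of relatives, in red where called higher, blue where called lower and grey where not called. USP2 at 2.48 and HEY1 at 3.48 stand out to the right, NFIL3 at −1.59 and PPP1R3C at −1.77 to the left, and most kinases, ligases and cofactors lie near 0.

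The protein families of the clock factors were read in the same way. BHLHE40 belongs to the bHLH-Orange family with the HES and HEY repressors of Notch signalling, of which 7 were tested, 1 was called higher and none lower. The gene called was HEY1, with 41.4, 71.2 and 49.9 scaled reads in the vector libraries, against 613, 640 and 550 in the libraries labelled nPD-L1 (log2 difference 3.48, SE 0.20, adjusted p = 3.0e-06). HES1, the best known Notch target, had a log2 difference of −0.21 (SE 0.12, adjusted p = 0.505), and HES2 had 1.09 (SE 0.44, adjusted p = 0.270) at 8.07 to 33.8 scaled reads. HEY2 was too low to be tested, with 0, 6.78 and 2.08 scaled reads against 9.24, 16.2 and 10.6. CACGTG stood in none of the start windows of the 10 members of this list that RefSeq covers.

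ARNTL and CLOCK belong to the bHLH-PAS family, of which 9 other members were tested, 2 were called higher and 1 lower. AHR, the receptor for dioxin and other aryl compounds, fell from 3090 ± 670 to 1602 ± 155 scaled reads (SD, n = 3; log2 difference −0.93, SE 0.15, adjusted p = 0.0035). A same-strand gene model shares 29.4% of its exon bases, so reads could be split there. ARNT, the common partner of AHR and HIF1A, rose from 670 ± 58.0 to 902 ± 21.8 (log2 difference 0.43, SE 0.11, adjusted p = 0.044). SIM2 rose from 1314 ± 328 to 2036 ± 95.1 (log2 difference 0.66, SE 0.17, adjusted p = 0.048). The calls of ARNT and SIM2 were each lost in 4 of the 6 fits with 1 library left out, all but those without vector replicates 2 or 3, and both were also lost with upper-quartile scaling and with edgeR on 4 libraries. That of ARNT was lost with no filter on low values as well. That of SIM2 held in 8 of 18 refits and was also lost with at least 10 in every library, with a pseudocount of 0.1, with non-robust moderation and with edgeR on all 6 libraries (adjusted p = 0.052). HIF1A, the oxygen-dependent factor that is known to switch on BHLHE40, had a log2 difference of 0.01 (SE 0.10, adjusted p = 0.985) at the transcript level, and EPAS1 had 0.43 (SE 0.18, adjusted p = 0.278).

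The genes whose pattern over the 6 libraries was most like that of BHLHE40 were found by Pearson's r of log2(scaled reads + 1) across all genes tested. With 2 groups that differ this much, r mainly ranks genes by how cleanly they separate the groups, and it is given as a description over 6 libraries. The highest were KCNA7 (r = 0.998), ZSWIM4 (0.998), MDFI (0.998), RYBP (0.998) and DPF1 (0.997). RYBP, a subunit of a Polycomb repressor complex, measured 482, 514 and 521 scaled reads in the vector libraries, against 1435, 1524 and 1560 in the libraries labelled nPD-L1. MDFI and KCNA7 had no reads in any vector library and 21.2 to 24.3 and 10.9 to 12.1 scaled reads in those labelled nPD-L1. Both thus passed the filter on low values only through the libraries labelled nPD-L1, and their high r follows from that split. The lowest were PDK4 (−0.999), AREG (−0.997), TESMIN (−0.996), GADD45A (−0.996) and ING1 (−0.994). PDK4, the kinase that shuts off pyruvate oxidation, measured 7769, 7937 and 7827 scaled reads in the vector libraries, against 1490, 1320 and 1500 in the libraries labelled nPD-L1. None of the 10 genes was a clock gene of the lists above.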

How the data were processed

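Total RNA of the 6 libraries was extracted with TRIzol and sequenced and analysed by a company. The submitters' processing notes name CASAVA, HISAT2 2.0.5 and hg38, and the counter is not given in the sources used here. Gene identifiers, coordinates and lengths of all 27009 genes equalled those of GENCODE 29, and lengths were the bases covered by exons of any transcript, UTRs included. The authors' deposited values were a signal, reads per gene divided by a size factor of the library. All nonzero values (100%) were whole multiples of 1 step within 0.05 of a read. In vector replicate 1 and nPD-L1 replicate 2 the step (1.01 in both) was so near 1 that the reads recovered there are less certain. The table also holds the authors' group means of this signal, and a log2 fold change and p-values of the authors' own comparison, and none of these was used.

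limma (version 3.58.1, R 4.3.3; trend and robust moderation, two-sided) was run on log2(value + 1) for genes with at least 10 in at least 3 libraries, with 3 libraries per group and no covariate. The call was set at a p under 0.05 after Benjamini-Hochberg adjustment over all genes tested. Differences on this scale understate the change of low genes. The alternatives were DESeq2 (version 1.42.0) and edgeR (version 4.0.16) on recovered reads, and other scalings, filters, pseudocounts, moderation, a replicate block, a fold threshold and each library left out. Added after the data were seen were edgeR on the 4 libraries with certain reads and the ROR element. Counting error adds to the spread between libraries, most for genes with few reads, and its part was not computed.

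The 10 genes and all lists were chosen with earlier results of these data known. Named were the 10 genes, CD274, every listed gene past the call with others as examples, and the 5 highest and 5 lowest correlations with BHLHE40. Start windows came from the RefSeq table for GRCh38, which held all 10 genes. Identity between the proteins was planned and not computed. The result for 1 listed gene is not reported here, and the gene stays in the counts.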

Additional observations from a re-analysis of the deposited data

How the results depend on the processing

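The values of the 10 clock genes are descriptions under every setting, since the genes were chosen on this contrast. Over 18 refits with another scaling, filter, pseudocount, moderation, tool or set of libraries, the log2 difference was 2.11 to 2.23 for BHLHE40 and 0.74 to 0.84 for CRY2, and CRY2 did not pass the call with edgeR on 4 libraries. At the main setting 609 genes were called higher and 139 lower, with 2 of the 10 clock genes and 8 other clock genes among them. The replicate block gave 927 higher, 258 lower, 4 clock genes (PER1 and DBP added) and 10 other clock genes. Deviations of same-numbered libraries correlated at −0.01, 0.23 and 0.13, and those of differently numbered ones at −0.22 to 0.08. Not every library correlated best with its own number. Whether same-numbered libraries were prepared together is not given in the sources used here. edgeR on the reads of 4 libraries, with 2 per group, gave 234 higher, 54 lower, 1 clock gene and 4 other clock genes. It moved the log2 difference of ARNTL from 0.22 to 0.05, and the calls of TEF, WEE1, TSC22D3 and KLF10 were lost in it. A log2 difference of at least 1 on top of the adjusted p left 306 higher, 68 lower, 1 clock gene and 4 other clock genes. With 1 library left out, 331 to 791 genes were called higher, 76 to 242 lower, 2 to 3 of the clock genes and 5 to 9 other clock genes. The low end of the higher calls came without nPD-L1 replicate 3 and that of the lower calls without vector replicate 1. The high ends, 791 higher and 242 lower, both came without vector replicate 2 and lay above the main setting. Fits on fewer libraries have less power by construction, and otherwise the cause was not tested. DBP was called lower in 4 of 18 refits and PER1 higher in 2 of 18. The other 6 clock genes were called in none. Upper-quartile scaling gave 516 higher and 168 lower.

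Depth limits BHLHE41 and PER3, which rest on 7 to 34 reads in the 6 libraries, and to a lesser degree DBP. DBP rests on 61, 66 and 44 reads in the vector libraries, against 40, 27 and 24 in those labelled nPD-L1. Overlap with opposite-strand exons limits DBP, PER3 and NR1D1.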
